A study of Homo sapiens with 8 samples.

Results

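NF-kB is a family of transcription factors that act as pairs of subunits. In resting cells the pairs are held back by inhibitor proteins. In the canonical route, receptors of the TNF superfamily and others act through adaptors and kinases to destroy those inhibitors. In the noncanonical route the kinase NIK accumulates and drives processing of the NFKB2 precursor, while TRAF3 and its partners normally keep NIK low. Myeloma cells are malignant plasma cells, and mutations that switch on either route are known in this disease.

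The genes described here are 41 components and targets of this pathway, listed by symbol and role. Of these, 21 had a named row on the arrays, and 20 of the 21 passed the filter on low levels and were tested among 12734 genes. CXCL8, a neutrophil chemokine, was the member below the filter. Its log2 level ran from 2.23 to 2.59 over the 8 arrays, and it was not tested. The other 20 listed genes had no named row and were not analysed here. They include every listed inhibitor of the kB family (NFKBIA, NFKBIB, NFKBIE and NFKBIZ), every listed receptor (TNFRSF1A, TNFRSF1B, CD40, LTBR, TNFRSF13B and TNFRSF13C) and the ligands LTA, LTB and TNFSF13B. TNFAIP3, BIRC3, TRAF2, TRAF6, IKBKB, IKBKE and IL6 were also without a named row. The values therefore describe subunits, adaptors, kinases and a few targets.

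The arrays, Affymetrix Human Gene ST, measured RNA of 2 established lines of human multiple myeloma, MM1.S and NCI-H929, grown in the same serum-containing medium. Each line carried a scramble hairpin (shSCR in the labels) or a hairpin against SIRT6 (shSIRT6), a chromatin deacetylase that uses NAD. There were 4 groups of 2 arrays each. Whether both arrays of a group stand for independent cultures is not given in the labels. The p-values therefore reflect array-to-array spread, and that spread may be only technical. They do not say how many hairpin sequences or clones were used.

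Values are log2 levels, so a difference of 1 is a doubling. Array medians ran from 3.88 to 3.97. Correlation across rows was 0.989 to 0.992 within groups and 0.942 to 0.950 between lines. SIRT6 differed between the constructs by a log2 difference of −0.30 ± 0.16 (SE) in MM1.S cells and by −0.47 ± 0.16 in NCI-H929 cells, and neither passed the test (adjusted p = 0.355 and 0.276), so the arrays check the hairpin labels only weakly. MAF and NSD2, the translocation partners of the 2 lines, differed in the direction of the line labels. Of 9 plasma cell markers 6 had a named row, and these (SDC1, IRF4, XBP1, CD38, SLAMF7 and MZB1) ran from 7.96 to 11.74. PAX5 and CD22, B cell markers, ran from 3.04 to 4.36, and 5 of 8 T and NK cell markers from 3.57 to 5.47. The 5 of 6 monocyte and macrophage markers with a row had array means of 4.28 to 4.51 in MM1.S and 4.67 to 4.84 in NCI-H929, with CD68 higher in NCI-H929 by 1.90 with scramble. The 3 of 6 stromal and endothelial markers had array means of 3.74 to 3.99 and 4.26 to 4.42, with PECAM1 higher by 1.52. Their part in the line differences was not tested. In bulk RNA, fewer cells that express a gene and less of its RNA per cell cannot be told apart.

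Genes of the NF-kB family are themselves known to be controlled by NF-kB, so promoter windows are shown for REL, NFKB1, NFKB2, CYLD and CFLAR, whose values are described below. They were taken from the windows that hold a match to the NF-kB motif, so their having one is no finding. Each window, from RefSeq on build GRCh38.p14, runs from 250 bases before to 50 bases after an annotated start and is written in the direction of the gene. Capitals mark matches on either strand to the kB consensus, a motif of 10 bases. All windows printed are on the plus strand.
REL, chr2:60881324-60881623: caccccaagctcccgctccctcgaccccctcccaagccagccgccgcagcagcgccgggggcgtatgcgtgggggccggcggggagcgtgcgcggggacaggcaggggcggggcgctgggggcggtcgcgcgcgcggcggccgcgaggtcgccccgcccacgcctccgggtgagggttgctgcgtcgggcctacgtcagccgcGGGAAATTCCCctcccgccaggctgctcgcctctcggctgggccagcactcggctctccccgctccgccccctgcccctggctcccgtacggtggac
NFKB1, chr4:102501109-102501408: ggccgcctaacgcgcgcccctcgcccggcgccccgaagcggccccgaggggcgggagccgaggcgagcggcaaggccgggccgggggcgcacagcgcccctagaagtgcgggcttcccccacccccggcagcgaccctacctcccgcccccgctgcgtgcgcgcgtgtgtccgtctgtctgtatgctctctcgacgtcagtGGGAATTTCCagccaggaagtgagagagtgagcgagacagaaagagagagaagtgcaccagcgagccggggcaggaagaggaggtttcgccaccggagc
NFKB2, chr10:102394328-102394627: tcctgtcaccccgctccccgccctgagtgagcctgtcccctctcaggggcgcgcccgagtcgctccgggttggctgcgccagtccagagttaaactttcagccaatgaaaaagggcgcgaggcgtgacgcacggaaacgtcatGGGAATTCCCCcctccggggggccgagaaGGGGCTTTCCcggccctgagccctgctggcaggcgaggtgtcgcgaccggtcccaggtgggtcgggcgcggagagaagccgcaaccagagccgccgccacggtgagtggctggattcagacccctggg
NFKB2, chr10:102395455-102395754: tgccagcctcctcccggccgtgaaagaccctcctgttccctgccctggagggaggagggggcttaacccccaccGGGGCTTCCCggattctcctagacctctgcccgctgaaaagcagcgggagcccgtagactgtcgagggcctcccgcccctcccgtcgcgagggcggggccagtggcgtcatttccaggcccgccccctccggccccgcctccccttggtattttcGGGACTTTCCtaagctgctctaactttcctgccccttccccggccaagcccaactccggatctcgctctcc
CYLD, chr16:50741836-50742135: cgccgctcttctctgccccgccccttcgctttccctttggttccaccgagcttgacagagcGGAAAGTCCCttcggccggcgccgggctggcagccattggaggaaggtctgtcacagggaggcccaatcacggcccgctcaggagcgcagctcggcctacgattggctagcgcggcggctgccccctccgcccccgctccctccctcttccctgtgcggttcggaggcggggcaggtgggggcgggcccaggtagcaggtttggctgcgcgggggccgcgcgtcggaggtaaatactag
CFLAR, chr2:201118466-201118765: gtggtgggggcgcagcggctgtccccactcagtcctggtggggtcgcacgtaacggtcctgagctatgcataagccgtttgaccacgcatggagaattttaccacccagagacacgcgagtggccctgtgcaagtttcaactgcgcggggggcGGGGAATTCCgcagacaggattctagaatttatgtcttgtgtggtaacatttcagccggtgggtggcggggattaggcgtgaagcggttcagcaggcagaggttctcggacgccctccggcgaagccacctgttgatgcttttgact

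Counting the start as 0, the match in NFKB1 began at −49 and that in CFLAR at −97. In REL, overlapping matches began at −47 and −46. NFKB2 had overlapping matches at −107 and −106 and another at −78 in the window printed above the other, and matches at −176 and −21 in the lower one. In CYLD a match began at −189 in the window printed, and another window of CYLD, not printed, held a match at 0. Among the 21 members with a named row, 19 had a promoter window, and 8 of the 19 held a match in at least 1 window (42.1%). The others with a match were TAB2, TNIP1 and TRAF3. By window the count was 10 of 37, or 27.0%. Over all 35116 windows in the table, 5.91% held a match, and by gene 7.09%. No match was found in the windows of ICAM1, TRAF5, CCL3, TNF, CXCL8, RELA, TRAF1, BIRC2, CHUK, MAP3K7 or MAP3K14, which says only that these letters are not in those 300 bases. RELB and CCL4 had no window. A match is a description of letters and not a measurement of binding.

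**Figure D1:**
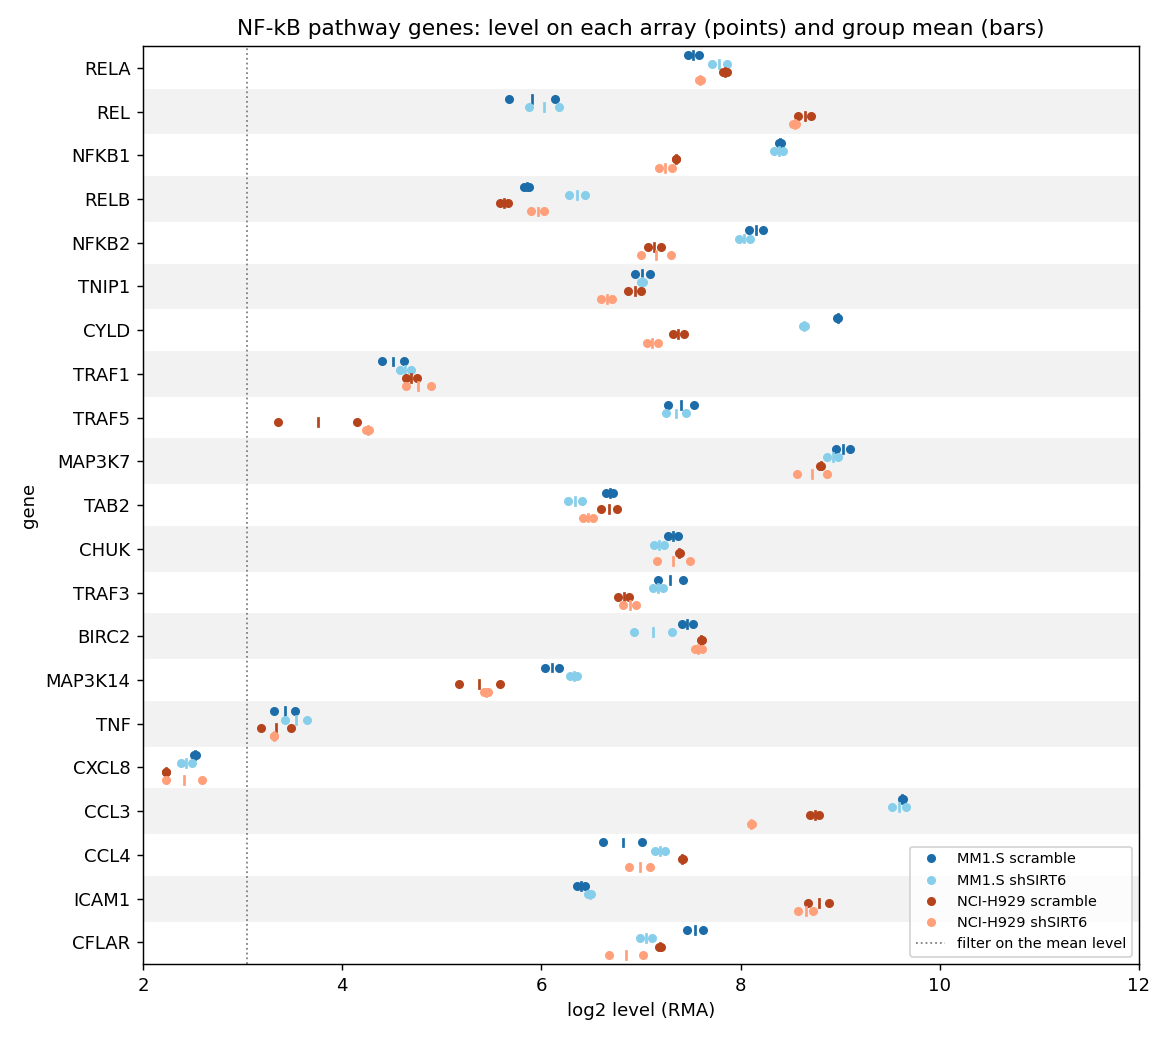
Log2 level (x axis, RMA) of each of the 21 measured members (y axis) on every array; each point is 1 array, each short bar a mean of 2 arrays, and the dotted line the filter level of 3.045. REL and ICAM1 lie further right in NCI-H929, TRAF5, CYLD, NFKB1 and NFKB2 further right in MM1.S, and CXCL8 lies left of the filter on every array.

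The lines differed in the RNA levels of NF-kB subunits, although all 5 lay above the filter level in both. With the scramble construct REL was higher in NCI-H929, and NFKB1 and NFKB2 were higher in MM1.S. Of the 20 members tested, 11 were called between the lines with scramble, 4 of them higher in NCI-H929 and 7 lower (limma, with a threshold of 0.05 on the p adjusted by Benjamini-Hochberg). That is 55.0%, against 38.3% of all genes tested. The members were chosen with earlier results of these data known, so the shares are descriptive only. The members' median absolute difference was 0.41 log2 and that of all genes 0.29. With shSIRT6, 11 were called, 3 higher and 8 lower, against 37.9% of all genes. The differences with each construct come from separate arrays. Their SE comes from a fit of all arrays, so the calls with each construct are not independent. Of the 11 called with each construct 8 were called with both, 72.7% of either set, all 8 in the same direction. Over all genes the shares called with both were 75.8% of the scramble calls and 76.7% of the shSIRT6 calls. Leaving out 1 array at a time gave 8 to 11 members called with each construct.

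Among the subunits, REL (cluster 16880414), which encodes c-Rel, the subunit typical of lymphoid cells, had log2 levels of 6.14 and 5.67 in MM1.S with scramble and 6.18 and 5.88 on the shSIRT6 arrays. In NCI-H929 it had 8.58 and 8.71 with scramble and 8.56 and 8.53 with shSIRT6. All 4 NCI-H929 arrays lay above all 4 MM1.S arrays. The log2 difference between lines was 2.74 ± 0.17 (SE) with scramble, a 6.68-fold difference, and 2.52 ± 0.17 with shSIRT6 (adjusted p = 2.54e-05 and 3.83e-05).

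NFKB1 (cluster 16969300), whose precursor gives the DNA-binding partner of RelA and c-Rel, went the other way. Its levels in MM1.S were 8.41 and 8.39 with scramble and 8.34 and 8.43 on the shSIRT6 arrays. In NCI-H929 they were 7.35 and 7.35, then 7.31 and 7.18. No array of one line reached the range of the other, and the difference was −1.05 ± 0.096 with scramble and −1.14 ± 0.096 with shSIRT6 (adjusted p = 1.50e-04 and 9.87e-05).

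NFKB2 (cluster 16708623), the precursor that the noncanonical route processes, followed NFKB1. MM1.S arrays read 8.22 and 8.08 with scramble and 7.98 and 8.09 with shSIRT6. NCI-H929 arrays read 7.07 and 7.20, then 7.00 and 7.30. The lines again did not overlap, with a difference of −1.02 ± 0.13 with scramble and −0.89 ± 0.13 with shSIRT6 (adjusted p = 6.92e-04 and 0.00132). Among the genes with windows printed above, REL was higher in NCI-H929 with scramble, and NFKB1, NFKB2 and CYLD were lower. The CFLAR difference of −0.35 with scramble did not pass. Whether the matches have a part in these differences was not tested.

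RELA (cluster 16740495), the main activating subunit of the canonical route, differed little. Its levels were 7.47 and 7.58 in MM1.S with scramble, 7.71 and 7.86 in MM1.S with shSIRT6, 7.82 and 7.86 in NCI-H929 with scramble, and 7.60 and 7.58 in NCI-H929 with shSIRT6. The line difference was 0.32 ± 0.10 with scramble (adjusted p = 0.0409) and −0.20 ± 0.10 with shSIRT6, where it did not pass (adjusted p = 0.175). The scramble call was lost in 10 of 16 alternatives. These include leaving out any 1 of the 4 scramble arrays (0.26 and 0.37 without replicates 1 and 2 of MM1.S, 0.335 and 0.295 without those of NCI-H929) and either shSIRT6 array of NCI-H929 (0.315).

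RELB (cluster 16863168), the partner of processed NFKB2 in the noncanonical route, had levels of 5.83 and 5.88 in MM1.S with scramble and 6.44 and 6.28 on the shSIRT6 arrays. In NCI-H929 it had 5.58 and 5.66, then 5.90 and 6.03. Within each construct both NCI-H929 arrays lay below both MM1.S arrays, by −0.24 ± 0.11 with scramble, which did not pass (adjusted p = 0.123), and by −0.40 ± 0.11 with shSIRT6 (adjusted p = 0.0207). The second call was lost without replicate 1 of shSIRT6 in MM1.S (−0.315) or in NCI-H929 (−0.33). It was also lost with the groups of the contrast fitted alone (limma adjusted p = 0.0609).

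Of the 3 measured genes that make NIK or hold it low, MAP3K14 was lower in NCI-H929 with both constructs. MAP3K14, the gene of NIK itself, ranged from 6.04 to 6.36 over the 4 MM1.S arrays and from 5.17 to 5.58 over the 4 NCI-H929 arrays. Its difference was −0.74 ± 0.14 with scramble and −0.89 ± 0.14 with shSIRT6 (adjusted p = 0.00513 and 0.00215). TRAF3, the adaptor that delivers NIK for degradation, was lower in NCI-H929 with scramble, by −0.47 ± 0.12 (adjusted p = 0.0170). That call was lost without replicate 1 of scramble in MM1.S (−0.345) or in NCI-H929 (−0.415), and with shSIRT6 the difference of −0.29 ± 0.12 did not pass (adjusted p = 0.104). BIRC2, a ubiquitin ligase of the same complex, was higher in NCI-H929 with shSIRT6, by 0.46 ± 0.14 (adjusted p = 0.0326). With scramble its difference of 0.14 ± 0.14 did not pass (adjusted p = 0.475). The BIRC2 call with shSIRT6 was lost without replicate 2 of shSIRT6 in MM1.S (0.265), without either shSIRT6 array of NCI-H929 (0.42 and 0.49) and without either of its scramble arrays (0.455). Fitting the groups of the contrast alone lost it too (limma adjusted p = 0.0793).

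TRAF5 was much lower in NCI-H929. It encodes an adaptor that several TNF superfamily receptors bind, and was read by cluster 16677133. Its levels in MM1.S were 7.53 and 7.27 with scramble and 7.45 and 7.25 on the shSIRT6 arrays. In NCI-H929 they were 4.15 and 3.36, then 4.24 and 4.27. The lines did not overlap, and the measured difference was −3.65 ± 0.24 with scramble and −3.10 ± 0.24 with shSIRT6 (adjusted p = 3.07e-05 and 6.50e-05). The NCI-H929 levels lay within the range of the B cell markers PAX5 and CD22 (3.04 to 4.36), and whether they were above background could not be judged. No fold is given for that reason, and the true difference may be larger than the measured one.

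The other canonical adaptors and kinases did not pass between the lines. CHUK, a subunit of the inhibitor kinase, differed by 0.07 with a 95% interval of −0.23 to 0.36 with scramble. MAP3K7, the kinase that activates it, differed by −0.23 (−0.52 to 0.07), and TAB2, which links MAP3K7 to ubiquitin chains, by −0.01 (−0.26 to 0.25). TRAF1, an adaptor and target gene, differed by 0.19 (−0.12 to 0.49). Its levels ran from 4.40 to 4.69 in MM1.S and from 4.64 to 4.89 in NCI-H929. These lay within the range of the T and NK cell markers (3.57 to 5.47), and whether they were above background could not be judged. With shSIRT6 none of the 4 (CHUK, MAP3K7, TAB2 and TRAF1) was called either.

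CYLD and TNIP1, brakes on the pathway, were the measured members that edit or bind ubiquitin chains. CYLD (cluster 16818842), a deubiquitinase that is mutated in some myelomas, read 8.98 and 8.97 in MM1.S with scramble and 8.65 and 8.63 on the shSIRT6 arrays. In NCI-H929 it read 7.43 and 7.32, then 7.17 and 7.06. The lines did not overlap, and the difference was −1.60 ± 0.096 with scramble, a 3.03-fold lower level in NCI-H929, and −1.53 ± 0.096 with shSIRT6 (adjusted p = 1.98e-05 and 2.75e-05). TNIP1, a partner of the editor TNFAIP3, ranged from 6.94 to 7.09 in MM1.S and from 6.60 to 7.00 in NCI-H929. It was called with shSIRT6 (−0.36 ± 0.11, adjusted p = 0.0318) and not with scramble (−0.08 ± 0.11, adjusted p = 0.606). The TNIP1 call was lost without any 1 of the 4 shSIRT6 arrays (−0.365 and −0.345 without replicates 1 and 2 of MM1.S, −0.41 and −0.30 without those of NCI-H929). Fitting the groups of the contrast alone lost it too (limma adjusted p = 0.0636).

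The measured targets did not move together between the lines. ICAM1 (cluster 16858137), an adhesion molecule that binds leukocyte integrins, had levels of 6.36 and 6.44 in MM1.S with scramble and 6.50 and 6.47 on the shSIRT6 arrays. In NCI-H929 it had 8.68 and 8.89, then 8.58 and 8.73. All NCI-H929 arrays were above all MM1.S arrays, by 2.39 ± 0.11 with scramble, a 5.22-fold difference, and 2.17 ± 0.11 with shSIRT6 (adjusted p = 6.46e-06 and 1.06e-05).

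CCL3 (cluster 16843578), a chemokine that stimulates osteoclasts in myeloma, went the other way. Its levels were 9.62 and 9.63 in MM1.S with scramble and 9.52 and 9.66 on the shSIRT6 arrays. In NCI-H929 they were 8.79 and 8.70 with scramble and 8.10 and 8.11 with shSIRT6. The line difference was −0.88 ± 0.097 with scramble and −1.49 ± 0.097 with shSIRT6 (adjusted p = 3.46e-04 and 3.24e-05). CCL3 and its neighbour CCL4 have near-identical copies in the genome, and their probes may read those copies too.

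CCL4 (cluster 16833420), a related chemokine, read 7.01 and 6.62 in MM1.S with scramble and 7.24 and 7.14 on the shSIRT6 arrays. In NCI-H929 it read 7.41 and 7.42 with scramble and 6.88 and 7.09 with shSIRT6. The lines thus stood in one order with scramble (0.60 ± 0.15, adjusted p = 0.0140) and in the other with shSIRT6 (−0.21 ± 0.15), where the difference did not pass (adjusted p = 0.324). The scramble call was lost without replicate 2 of MM1.S scramble (0.405) or without either scramble array of NCI-H929 (0.605 and 0.595). CFLAR, an inhibitor of caspase activation at death receptors, differed by −0.35 ± 0.13 with scramble (adjusted p = 0.0786) and −0.20 ± 0.13 with shSIRT6 (adjusted p = 0.295). TNF, the ligand after which the receptor family is named, ranged from 3.18 to 3.65 over all arrays, close to the filter level, and was called in no comparison. It has 8 rows, 7 of them with identical values.

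**Figure D2:**
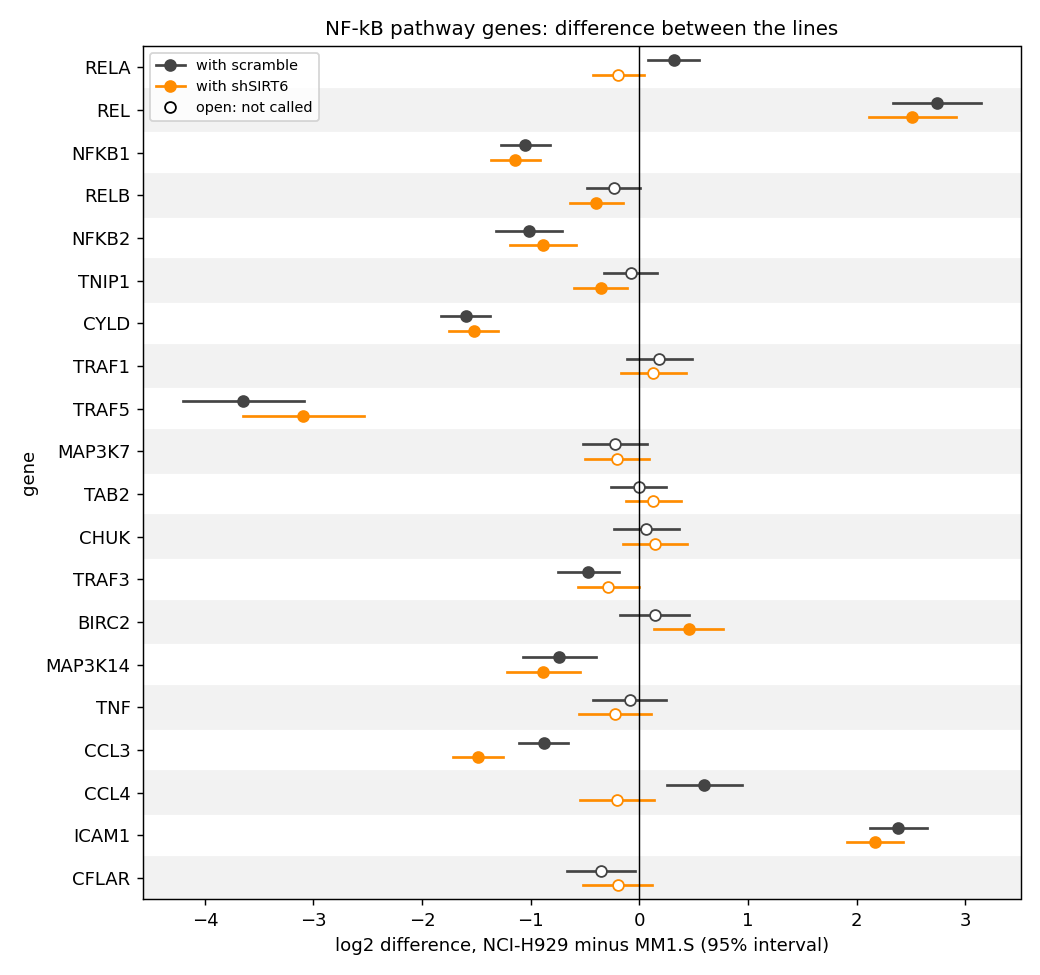
Log2 difference NCI-H929 minus MM1.S (x axis) of the 20 tested members (y axis), with limma's 95% intervals; grey, scramble arrays; orange, shSIRT6 arrays; filled points are called and open points are not. The 8 members called with both constructs lie on the same side of 0 with each, from TRAF5 at −3.65 to REL at 2.74 with scramble.

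Against these line differences, differences between the hairpin constructs were small and no member passed. In MM1.S, 0 of 20 members were called by limma, against 1.33% of all genes. In NCI-H929, 0 were called, against 0.0236% of all genes. At these shares a set of 20 genes would hold few calls or none. An unadjusted limma p below 0.05 was found for 7 of 20 members in MM1.S and 7 of 20 in NCI-H929. Of all 12734 genes, 2493 and 1846 had such a p, a smaller share in both lines. The members were chosen with earlier results of these data known. For the mean of both lines 0 were called, against 0.0864% of all genes, with 5 members and 2711 of all genes at an unadjusted p below 0.05. For the difference between the lines 0 were called, against 0.204%, with 3 members and 1763 of all genes at that p. The members' median log2 difference was −0.03 in MM1.S, where that of all genes was 0.01, and −0.09 in NCI-H929, where that of all genes was −0.05. In MM1.S the members' median was 0.04 after another quantile normalization and 0.01 after cyclic loess, so its sign is not settled. In NCI-H929 it was −0.02 after either, where that of all genes was −0.01 and −0.02. Allowing the variance to follow the level in limma called 3 members in MM1.S (CFLAR, CYLD and RELB), 1 in NCI-H929 (CCL3), 4 for the mean (these 4) and 3 for the difference (CCL3, CCL4 and RELA). That setting also called 953, 194, 911 and 430 of all genes.

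RELB was the subunit with the largest difference between constructs. Both shSIRT6 arrays of each line lay above both scramble arrays of that line, in the levels given above. The difference was 0.51 ± 0.11 in MM1.S (adjusted p = 0.0683) and 0.35 ± 0.11 in NCI-H929 (adjusted p = 0.252), with a mean of 0.43 ± 0.074 (adjusted p = 0.0690). It passed with the stricter filter in MM1.S (adjusted p = 0.0463) and for the mean (adjusted p = 0.0468). It also passed with a variance trend in MM1.S and for the mean (adjusted p = 0.0353 and 0.0187). Over the 16 alternatives the adjusted p in MM1.S reached 0.313. The share of all genes whose construct arrays did not overlap was not counted, here or for the members below.

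CYLD and CFLAR were lower on the shSIRT6 arrays of both lines without passing. CYLD differed by −0.34 ± 0.096 in MM1.S and −0.26 ± 0.096 in NCI-H929 (adjusted p = 0.131 and 0.294). CFLAR (cluster 16889411) read 7.62 and 7.46 in MM1.S with scramble and 7.11 and 6.99 with shSIRT6, and in NCI-H929 7.18 and 7.20, then 7.02 and 6.68. Its shSIRT6 arrays lay below the scramble arrays in each line, and it differed by −0.49 ± 0.13 and −0.34 ± 0.13 (adjusted p = 0.119 and 0.320). With a variance trend the MM1.S differences of CYLD and CFLAR passed (adjusted p = 0.0206 and 0.0229).

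TAB2 (cluster 17013567) read 6.72 and 6.65 in MM1.S with scramble and 6.27 and 6.41 on the shSIRT6 arrays. In NCI-H929 it read 6.76 and 6.60, then 6.52 and 6.42. Its arrays of the 2 constructs did not overlap in either line. The differences were −0.35 ± 0.11 and −0.21 ± 0.11, with a mean of −0.28 ± 0.076 (adjusted p = 0.150, 0.411 and 0.118).

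CCL3 had the lowest p of the members in NCI-H929. There its shSIRT6 arrays (8.10 and 8.11) lay below its scramble arrays (8.79 and 8.70), a difference of −0.64 ± 0.097 with an unadjusted p of 2.39e-04 (adjusted p = 0.158). In MM1.S its constructs overlapped, at −0.04 ± 0.097 (adjusted p = 0.871). The difference between the lines was −0.61 ± 0.14 (adjusted p = 0.167). With a variance trend the NCI-H929 difference had an adjusted p of 9.06e-04 and the difference between lines 0.00382, and neither passed in any other alternative. CCL4 differed by 0.38 ± 0.15 in MM1.S and −0.43 ± 0.15 in NCI-H929 (adjusted p = 0.222 and 0.274). RELA differed by 0.26 ± 0.10 and −0.25 ± 0.10 (adjusted p = 0.217 and 0.323). For CCL4 and RELA the arrays of the constructs did not overlap in either line and stood in opposite order. The differences between lines did not pass (adjusted p = 0.201 and 0.224). The share of all genes with such an order was not counted, so the order is no result about these members.

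Markers of T and NK cells, which also make CCL3 and CCL4, stood somewhat apart on the same arrays. The mean log2 level of the 5 measured (CD2, CD4, CD8A, NKG7 and GNLY) was 4.35 and 4.22 on the NCI-H929 scramble arrays and 4.56 and 4.57 on the shSIRT6 arrays, with 0 of 5 called by limma and 1 at an unadjusted p below 0.05. The levels of these markers were low, from 3.57 to 5.47 over all arrays, and whether they were above background could not be judged. CCL3 and CCL4 lay lower on the NCI-H929 shSIRT6 arrays than on its scramble arrays. Monocytes and macrophages make both chemokines too, and 3 of their markers were tested. CD68 read 10.37 and 10.47 on the NCI-H929 scramble arrays and 10.01 and 10.08 on the shSIRT6 arrays. CSF1R differed by −0.20 in NCI-H929 and by 0.57 in MM1.S, and CD14 by 0.38 and 0.12. Their levels were low, from 4.13 to 4.82 for CSF1R and from 3.15 to 3.79 for CD14 over all arrays. PAX5 and CD22 ran from 3.04 to 4.36, so whether CSF1R and CD14 were above background could not be judged. The differences between the lines were −0.48 for CD68 and −0.77 for CSF1R (unadjusted p = 0.0146 and 0.00727, limma adjusted p = 0.252 and 0.216). None of the 3 was called in either line. LYZ and CD163, other defining markers, were below the filter. The mean level of the 5 measured monocyte and macrophage markers was 4.28 to 4.38 on the MM1.S scramble arrays and 4.49 to 4.51 on the shSIRT6 arrays. In NCI-H929 it was 4.67 to 4.78 and 4.74 to 4.84. The part of either cell type's markers in the differences of CCL3 and CCL4 was not tested.

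For the other members the intervals of the hairpin difference reflect array-to-array spread, which may be only technical. NFKB1 differed by −0.02 in MM1.S, with a 95% interval of −0.24 to 0.21, and by −0.11 in NCI-H929 (−0.33 to 0.12). NFKB2 differed by −0.12 (−0.42 to 0.19) and 0.02 (−0.29 to 0.32), and REL by 0.13 (−0.28 to 0.53) and −0.10 (−0.50 to 0.30). ICAM1 differed by 0.09 (−0.18 to 0.35) and −0.13 (−0.39 to 0.13). TRAF5 had the widest intervals, −0.05 (−0.61 to 0.51) in MM1.S and 0.50 (−0.06 to 1.06) in NCI-H929. BIRC2 differed by −0.35 ± 0.14 in MM1.S and TNIP1 by −0.28 ± 0.11 in NCI-H929, neither of which passed (adjusted p = 0.225 and 0.301).

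**Figure D3:**
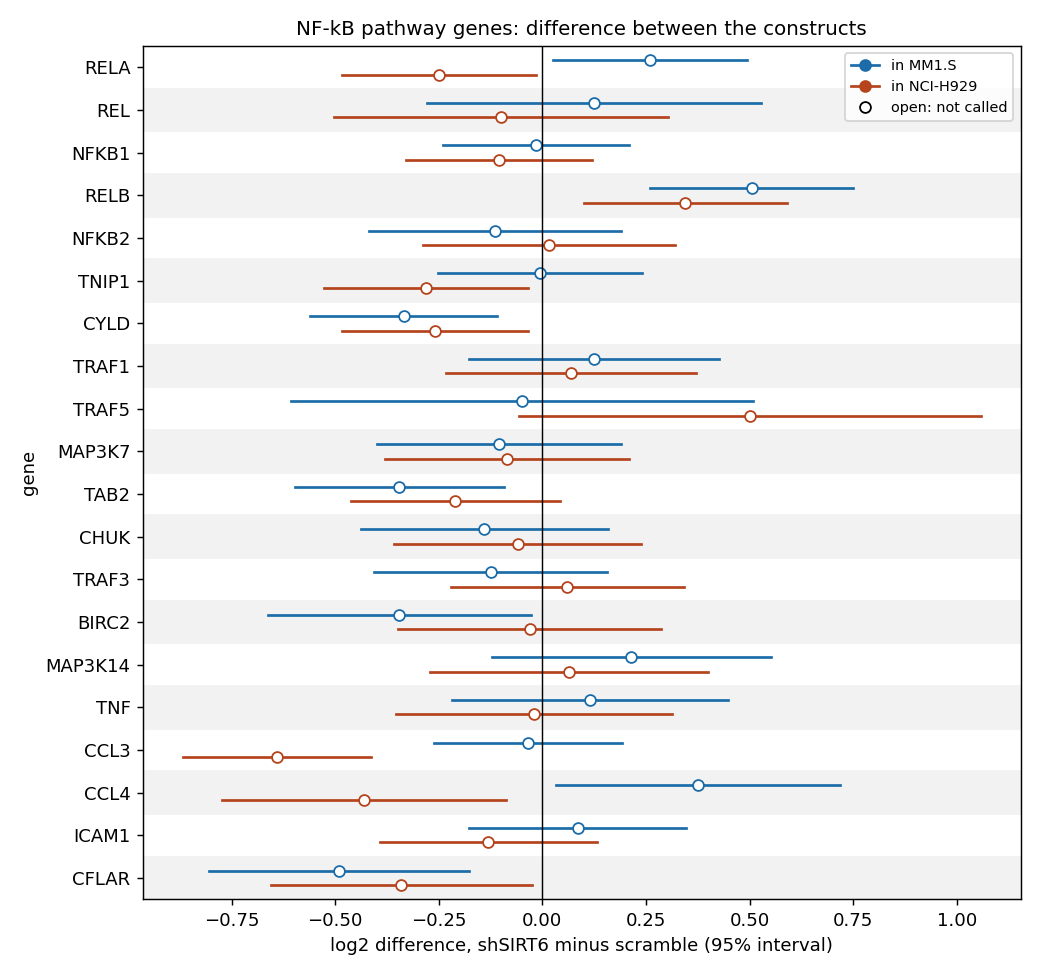
Log2 difference shSIRT6 minus scramble (x axis) of the 20 tested members (y axis), with limma's 95% intervals; blue, MM1.S; red, NCI-H929; every point is open because no member was called. RELB lies right of 0 and CYLD and CFLAR left of 0 in both lines, CCL3 lies at −0.64 in NCI-H929 and −0.04 in MM1.S, and RELA and CCL4 lie on opposite sides in the 2 lines.

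Other genes of the pathway and of the TNF superfamily, 105 listed by name, had 58 named rows and 51 tested. Between the lines with scramble 28 of the 51 were called by limma, 12 higher and 16 lower in NCI-H929, and with shSIRT6 29, 11 higher and 18 lower. These are 54.9% and 56.9%, against 38.3% and 37.9% of all genes. This list too was chosen with earlier results of these data known. Both constructs called 22, all in the same direction, which is 78.6% of the scramble calls and 75.9% of the shSIRT6 calls, against 75.8% and 76.7% over all genes. Higher in NCI-H929 with scramble were IRAK2 and IRAK1, kinases of Toll-like and interleukin 1 receptor signalling, by 3.22 ± 0.11 and 1.56 ± 0.10. BCL2A1, a survival protein and NF-kB target, was higher by 2.51 ± 0.10 as measured, the transcription factor JUNB by 2.17 ± 0.10 and the caspase inhibitor XIAP by 1.31 ± 0.12. Lower in NCI-H929 were CD70, a TNF superfamily ligand, by −2.26 ± 0.16, the chemokine CXCL10 by −2.18 ± 0.19 as measured, BCL2L1, which encodes the survival protein BCL-XL, by −1.93 ± 0.093, and MAP3K8, a kinase held by the NFKB1 precursor, by −0.96 ± 0.13. The adjusted p values of these 9 genes lay between 1.47e-06 (IRAK2) and 9.45e-04 (MAP3K8). CXCL10 averaged 2.99 in NCI-H929 with scramble, below the filter level of 3.045, and BCL2A1 averaged 4.04 in MM1.S, a level that PAX5 and CD22 also reached. The true differences of CXCL10 and BCL2A1 may therefore be larger than the measured ones. The genes here were named for large differences each way, so the mixed direction of BCL2A1, XIAP and BCL2L1 is no result about survival genes.

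A published set of markers of NF-kB activity in myeloma has 11 genes on the list used here, of which 4 were tested: NFKB2, RELB, MALT1 and PLEK. PLEK, which encodes the signalling protein pleckstrin, differed most as measured. Its levels were 8.95 and 8.88 in MM1.S with scramble and 8.56 and 8.49 on the shSIRT6 arrays. In NCI-H929 they were 3.78 and 4.00, then 3.62 and 4.27. The measured gap was −5.03 ± 0.20 with scramble and −4.58 ± 0.20 with shSIRT6 (adjusted p = 3.03e-06 and 4.87e-06). The NCI-H929 levels again lay within the range of PAX5 and CD22, so the true gap may be larger. MALT1, a protease of antigen receptor signalling, was lower by −0.83 ± 0.11 and −0.53 ± 0.11 (adjusted p = 8.29e-04 and 0.00712), and its adaptor BCL10, which is not in that set and is named here after its values were seen, by −0.77 ± 0.12 and −0.86 ± 0.12. All 4 markers were lower in NCI-H929 with each construct, 3 called with scramble and 4 with shSIRT6. With 7 of the 11 unmeasured, and NFKB2 and RELB already counted above, the set gives no separate measure of activity.

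With the hairpin, 1 of the 51 other genes passed by limma in the MM1.S comparison and 0 in that of NCI-H929. The share called in MM1.S is 1.96%, against 1.33% of all genes. At an unadjusted limma p below 0.05 there were 10 and 13 of the 51, beside 2493 and 1846 of all 12734 genes. That is about the same share in MM1.S and a larger one in NCI-H929. TANK, an adaptor that binds TRAF proteins and the kinase TBK1, fell in MM1.S from 6.97 and 6.91 with scramble to 6.45 and 6.37 with shSIRT6, a log2 difference of −0.53 ± 0.093 (adjusted p = 0.0474). In NCI-H929 it read 6.45 and 6.37, then 6.37 and 6.39. The call in MM1.S was lost in 13 of 16 alternatives, including without any 1 of the 8 arrays, where the difference ran from −0.57 to −0.49.

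**Figure D4:**
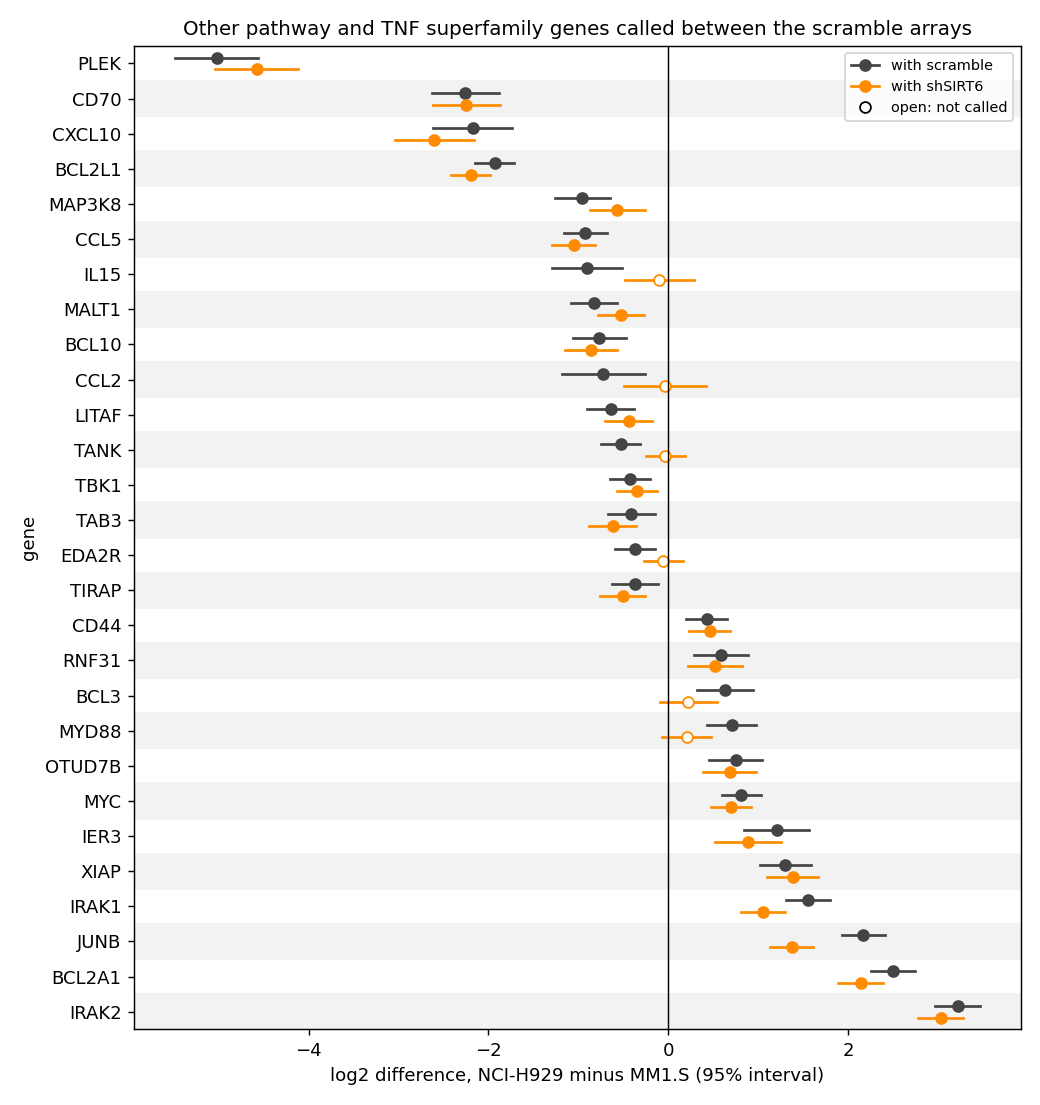
Log2 difference NCI-H929 minus MM1.S (x axis) of the 28 other pathway, target and TNF superfamily genes called with scramble (y axis, sorted), with limma's 95% intervals; grey, scramble arrays; orange, shSIRT6 arrays; filled points are called. The values run from PLEK at −5.03 to IRAK2 at 3.22, and 22 of the 28 are filled with both constructs.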

How the data were processed

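Total RNA of 8 samples of 2 myeloma lines was hybridised to arrays. Per the submitters' processing notes the authors summarised the arrays with RMA in the Transcriptome Analysis Console on build hg19; no version is named in the sources used here. The deposited values are log2 levels, 1 row per transcript cluster, and were used as given. RMA compresses low levels, and no value tells signal from background. The platform annotation gives 1 gene symbol for 16098 of 48226 rows, several for none, and leaves 32128 unnamed here. The symbols stand for 14884 genes. No column of per-sample values was left unused (0).

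For each gene the row with the highest mean was kept. Genes were tested (12734) where their mean exceeded 3.045, which is the 30th percentile over all rows. The fit used limma 3.58.1 under R 4.3.3, with a mean for each of 4 groups and all 8 arrays (lmFit, eBayes, 4 residual and 3.43 prior degrees of freedom), with 6 contrasts. The threshold was a p of 0.05 after Benjamini-Hochberg adjustment over every gene tested. An exact permutation test of 2 arrays against 2 cannot give a two-sided p below 0.333. The code was tested on simulated data. Alternatives were another quantile normalization, cyclic loess, no filter, the 50th percentile, the mean of a gene's rows, a replicate block, a variance trend, the groups of a contrast alone, and leaving out each array. The number of arrays limits the precision.

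Members and lists were chosen with earlier results of these data known. Values of every array are given for members called with an absolute difference of at least 1, or with an unadjusted p below 0.01 in a hairpin contrast. Other pathway genes named are the 5 called with the largest scramble line difference each way, those called with the hairpin, and the measured activity markers. Marker lists of B cells, T and NK cells, monocytes and macrophages, and stroma and endothelium were measured in part.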

Additional observations from a re-analysis of the deposited data

Results flagged for a closer look

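The hairpin difference went opposite ways in the 2 lines for CCL4 and RELA, with no overlap between the arrays of the constructs in either line. The share of all genes that do so was not counted. For CCL4 the difference of the effects, NCI-H929 minus MM1.S, was −0.81 on the log2 scale (unadjusted p = 0.00535, limma adjusted p = 0.201). For RELA it was −0.51 (unadjusted p = 0.00791, adjusted p = 0.224). Neither passed in the main fit, and the smallest sizes over the alternatives were −0.61 and −0.435. With a variance trend both passed (limma adjusted p = 0.0277 and 0.0393), a setting that called 430 of all genes. No other alternative called either.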

How the results depend on the processing

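With scramble and with shSIRT6 the counts of members called between the lines, 11 each, stayed within 1.5 times under all 16 alternatives (8 to 12 and 8 to 11). Counts in the hairpin contrasts depended on the settings. In MM1.S, 314 genes and 1 member (RELB) were called with the stricter filter, 78 and 0 with the replicate block, 953 and 3 with the variance trend, and 0 and 0 with the groups fitted alone. Without 1 array, 0 to 84 genes and 0 members were called. In NCI-H929, 0 genes were called after quantile or cyclic loess normalization, without a filter, with the mean of rows, with the replicate block, with the groups fitted alone and without any 1 array, and 194 genes and 1 member (CCL3) with the variance trend. For the mean of both lines, 4 genes were called after quantile normalization, 5 after cyclic loess, 98 with the stricter filter (1 member, RELB), 0 with the replicate block, 911 with the variance trend (4 members) and 0 without any 1 array. For the difference between lines, 5 were called with the replicate block, 430 with the variance trend (3 members) and 2 to 6 without 1 array. The cause was not tested. Same-numbered arrays showed no large shared deviation (r from −0.041 to 0.0767 between groups). The labels do not say whether they were handled together, and these correlations cannot exclude it. With the replicate block no member lost a call, while the counts over all genes fell in the hairpin contrasts. The 96 results for single genes that were called, or had an unadjusted p below 0.01 in a hairpin comparison of a member, or concern SIRT6, gave 1526 alternative values. None of these changed sign, 1413 kept their side of the threshold, 100 lost a call and 13 gained one. Over all 120 results of the 20 members, 33 changed sign under at least 1 alternative, 30 of them in hairpin comparisons, and 0 of them were called as reported.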
